A study of Mus musculus with 6 samples.

Results

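The transcripts described here encode the TRAF2-TRAF3-cIAP complex, the kinase it holds in check, receptors that act through it, and the secreted decoy receptor osteoprotegerin (Tnfrsf11b). They are Traf1, Traf2, Traf3, Birc2, Birc3, Map3k14, Cd40, Ltbr, Tnfrsf12a and Tnfrsf11b, 10 of the 22275 gene symbols that could be given to probes of the array. A probe was taken where the accession or the description on which it was designed names one of these genes. All 10 genes had a probe, 13 probes in all, and each probe was printed as 1 spot. The array holds 55681 probes. Expression was compared between 1G11-mock and 1G11-SOD3 cells, mouse microvascular endothelial cells of C57BL/6NCrLBR origin, the latter overexpressing the extracellular superoxide dismutase SOD3. Both lines had spent 6 h in medium from N202.1A mammary cancer cells before RNA was taken, and there was no group without this medium. Each line gave 3 arrays, which the study treats as independent experiments. The study calls both lines transfectants, and whether each is 1 clone is not given in the sources used here.

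TNF receptors have no enzymatic activity of their own and signal by gathering TRAF adaptors. TRAF2 and TRAF3 carry the ubiquitin ligases cIAP1 (Birc2) and cIAP2 (Birc3) to the kinase NIK (Map3k14), which is then degraded, so NIK protein stays scarce in resting cells. When CD40, the lymphotoxin beta receptor (Ltbr) or the TWEAK receptor (Tnfrsf12a) is engaged, the complex is drawn away, NIK accumulates, activates IKK alpha (Chuk), and the precursor made from Nfkb2 is processed into a partner of RelB. This is the noncanonical branch of NF-κB, known in endothelium for the induction of chemokines and adhesion molecules. Much of this control acts on protein stability, which arrays of mRNA do not measure. The study ran these arrays to look for how SOD3 might act on transcription of the laminin gene LAMA5. From them it reported inhibition of the NF-κB pathway, and the comparison below gives the transcript side of the noncanonical branch.

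The probes are shown first, since 3 genes had a pair of them that did not always move alike. Each is 60 bases long and is written in the sense of the transcript. The first 30 bases are given for the only member called differentially expressed outside the middle of the array, for the cIAP1 probe, and for both Traf2 probes. The probe is given whole for Birc3 and Map3k14 where it lies in coding sequence. No base is capitalized.
Tnfrsf11b, chr15:54082760-54082819, minus strand: tttatccagctgtcatgtctggttcagtat
Birc2, chr9:7818688-7818747, minus strand: gaagaatggtctgaaagtattgttggacat
Traf2, A_55_P2092958, chr2:25373541-25373600, minus strand: ggattattgctctaggatttctccatagac
Traf2, A_55_P2092963, chr2:25374386-25374445, minus strand: ggctgcacagccttgccaggtggcctgtat
Birc3, A_55_P1980287, chr9:7854409-7854468, minus strand: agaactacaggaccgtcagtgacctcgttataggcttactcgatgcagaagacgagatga
Map3k14, A_55_P1988664, chr11:103101069-103101128, minus strand: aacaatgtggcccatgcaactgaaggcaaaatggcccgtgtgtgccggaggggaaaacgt
These positions are those of the array annotation, which names no genome build. Birc2 and Birc3 are neighboring paralogs whose older symbols were exchanged, and the names used here follow the RefSeq accession. The other Birc3 probe, A_52_P434055, was named from the full gene name in its description.

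The place of a spot entered into the comparison. Spots in rows 129 to 256 and columns 55 to 109, called the middle here, read dim on the 1G11-mock arrays. Bright probes with copies in both places gave median log2 differences, middle minus elsewhere, of -0.67, -0.87 and -2.42 for 1G11-mock replicates 1 to 3 and of 0.15, -0.18 and 0.11 for 1G11-SOD3 (128 probes). Of the members, 10 probes for 8 genes lay elsewhere, while the probes of Birc2 and Tnfrsf12a and 1 Birc3 probe lay in the middle and are described apart. All 1G11-mock arrays lay in one row of the slide and all 1G11-SOD3 arrays in the other, so cell line and slide row cannot be told apart. On each array 34.2% to 43.8% of spots were well above background by the scanner software, and none was saturated. A spot that did not pass this limit is called below background here, though its intensity can exceed the local background. Sod3 itself had a probe only in the middle. It read 13.61, 12.66 and 9.86 in 1G11-mock replicates 1 to 3 and 16.37, 16.30 and 16.26 in 1G11-SOD3 (log2 intensity), a log2 fold change of 4.27 (SE 0.70, adjusted p = 0.0076). With a smooth surface over row and column taken off each array, called the position surface below, its fold change was 2.64 (adjusted p = 0.0136).

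The study states that it regularly verified the endothelial origin of 1G11 cells by VE-cadherin staining, which reads protein. Here endothelial identity was checked by marker transcripts. Eng and the brighter Kdr probe were well above background on all arrays. Another Kdr probe elsewhere, A_51_P316553, was above it on none (mean log2 intensity 6.84 in 1G11-mock and 6.91 in 1G11-SOD3). Eng read lower in each 1G11-SOD3 array than in any of 1G11-mock and was not called (log2 fold change -1.05, adjusted p = 0.0821). Vwf was above background on all arrays too, and it fell in 1G11-SOD3, with a log2 fold change of -1.65 (adjusted p = 0.00326). Pecam1 was above it on 3 of 6 arrays. Cdh5 (VE-cadherin), Tek, Tie1 and Emcn were well above background on no array. Of the leukocyte markers, Ptprc, Cd68 and Adgre1 were likewise above background on none, and Cd3e was above it on all 6 arrays. Of 6 mammary epithelial markers none was called. Epcam and Krt18 were above background on no array, whereas Krt19, a keratin of simple epithelia, was bright on all 6 (mean log2 intensity 16.48 in 1G11-mock and 15.96 in 1G11-SOD3, adjusted p = 0.478), and Erbb2 was above background on all 6 as well (10.51 and 10.85, adjusted p = 0.606). In such bulk RNA, fewer cells of a type and less RNA per cell cannot be told apart.

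All values that follow are log2 normalized intensities in the order of replicates 1, 2 and 3, and a fold change is 1G11-SOD3 minus 1G11-mock on the log2 scale. A probe is said to be called, or to rise or fall, at an adjusted p under 0.05 (limma, Benjamini-Hochberg over 55971 probe and place combinations) together with a change over 2-fold. Elsewhere on the array, 1 of the 10 member probes was called higher and 0 were called lower. The corresponding shares of all 49526 probes elsewhere were 0.66% higher and 1.2% lower, 1.86% in either direction. At an unadjusted p under 0.05, 4 of 10 member probes were lower by limma, against 7.99% of all probes elsewhere. Values of the lines did not overlap at 4 of 10 member probes, against 19.6% of all probes elsewhere. Above background on all arrays of a line were 8 of the 10 member probes, but only 17658 of the 49526. The shares were not taken over such probes alone, so the members are set against a dimmer reference. The median fold change over the 8 genes, each by its brightest probe, was -0.38. The median was -0.06 over all probes elsewhere and -0.13 over those above background on all arrays of a line. The called probe was that of Tnfrsf11b, and the 4 lower probes were those of Traf1, Traf2 and Traf3.

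**Figure D1:**
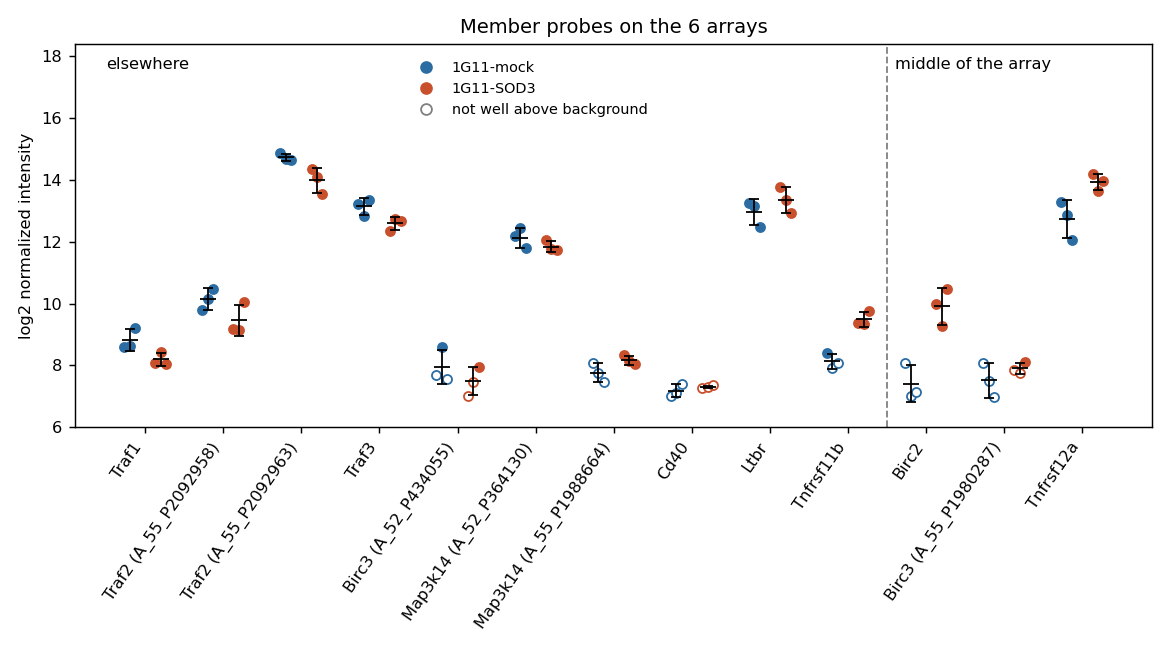
Log2 normalized intensity of the 13 member probes on the 6 arrays (blue, 1G11-mock; red, 1G11-SOD3; replicates 1 to 3 from left to right within a line; bars, mean and SD, n = 3 arrays). Open circles were not well above background. The 3 Tnfrsf11b values of 1G11-SOD3 lie at 9.35 to 9.77, above the 7.91 to 8.40 of 1G11-mock. The 3 probes right of the dashed line lie in the middle of the array.

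Among the receptors, Tnfrsf11b was higher in 1G11-SOD3 cells. It encodes osteoprotegerin, a secreted decoy receptor that binds RANKL and TRAIL and keeps them from their signaling receptors. The probe read 8.40, 7.91 and 8.08 in 1G11-mock and 9.37, 9.35 and 9.77 in 1G11-SOD3. The lowest 1G11-SOD3 value lay above the highest 1G11-mock value. The means were 8.13 ± 0.25 and 9.49 ± 0.24 (SD, n = 3), and the log2 fold change was 1.36 (SE 0.24, 95% interval 0.84 to 1.88, adjusted p = 0.0105), a 2.57-fold increase. The unnormalized spot intensity was 465, 374 and 466 in 1G11-mock over a local background of 78, 78 and 114, and 822, 771 and 1440 in 1G11-SOD3 over 88, 74 and 94. The signal was thus low, and it passed the scanner's background limit on 1 array of 1G11-mock and on all 3 of 1G11-SOD3. The call was lost without 1G11-mock replicate 2 (log2 fold change 1.28, adjusted p = 0.0543) and without 1G11-SOD3 replicate 3 (1.17, adjusted p = 0.0587). Fibroblast and mural markers moved with it. Of 5 such genes, all measured, Pdgfrb (log2 fold change 2.39, adjusted p = 0.000346), Lum (at least 2.24-fold, adjusted p = 0.0299) and Col1a1 (8.55-fold, adjusted p = 0.00147) rose and 0 fell. The summed linear level of the 5 ran from 20200 to 34700 in 1G11-mock and from 32500 to 170000 in 1G11-SOD3, the highest being replicate 3. That replicate was set apart by Dcn, a matrix proteoglycan of fibroblasts, which read 14.78, 14.48 and 14.04 in 1G11-mock and 13.51, 13.59 and 17.05 in 1G11-SOD3 and was not called (adjusted p = 0.905). In the other 1G11-SOD3 arrays Dcn lay below all of 1G11-mock, and their sums were 37700 and 32500. The part of these markers in the Tnfrsf11b difference was not tested.

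The ligands of osteoprotegerin gave little signal. Tnfsf11 (RANKL) and Tnfsf10 (TRAIL) were well above background on no array. The signaling receptor for RANKL, Tnfrsf11a, had a probe only in the middle, where it read 9.62, 10.26 and 7.75 in 1G11-mock and 10.21, 10.15 and 9.86 in 1G11-SOD3. The lines overlapped there, and the log2 fold change was 0.86 (SE 0.50, adjusted p = 0.48). The genes most like Tnfrsf11b over the 6 arrays, among 11425 probes elsewhere that were above background on all of them, were Hinfp (r = 0.9973), Cycs (r = 0.9907) and Igf1 (r = 0.9897). The points of these correlations are arrays of 2 lines, and r is given as a description. Of these, Igf1, the insulin-like growth factor, rose by 3.97 on the log2 scale (adjusted p = 0.000349), whereas Hinfp (0.89, adjusted p = 0.0591) and Cycs (0.57, adjusted p = 0.241) were not called.

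Ltbr, which binds lymphotoxin and LIGHT and directs lymphoid tissue formation, was a bright probe. It read 13.26, 13.15 and 12.47 in 1G11-mock and 13.77, 13.35 and 12.94 in 1G11-SOD3. The lines overlapped, with a log2 fold change of 0.39 (SE 0.29, 95% interval -0.25 to 1.03, adjusted p = 0.599). Its ligand genes Lta, Ltb and Tnfsf14 were well above background on no array.

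Cd40, the receptor through which activated T cells stimulate endothelium and antigen-presenting cells, was not measurable. It read 7.02, 7.11 and 7.40 in 1G11-mock and 7.26, 7.30 and 7.35 in 1G11-SOD3. It was well above background on no array, so no fold is given. Its ligand gene, Cd40lg, was likewise well above background on no array. Ltbr and Tnfrsf12a were therefore the receptors of the noncanonical branch among the members with a clear signal in both lines.

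The TRAF adaptors read lower in 1G11-SOD3 at each of their 4 probes, and none was called. Traf1, an adaptor without ubiquitin ligase activity that pairs with TRAF2 and is itself an NF-κB target, read 8.60, 8.62 and 9.22 in 1G11-mock and 8.09, 8.44 and 8.05 in 1G11-SOD3. The lines did not overlap, the narrowest gap being between 8.44 and 8.60, and the log2 fold change was -0.62 (SE 0.25, 95% interval -1.17 to -0.06, adjusted p = 0.281).

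Traf2, the adaptor that brings the cIAPs to TNF receptors, had a pair of probes. Probe A_55_P2092963 read 14.87, 14.67 and 14.66 in 1G11-mock and 14.35, 14.08 and 13.55 in 1G11-SOD3. These values did not overlap, with a log2 fold change of -0.74 (SE 0.25, 95% interval -1.30 to -0.18, adjusted p = 0.181). Probe A_55_P2092958 read 9.78, 10.16 and 10.47 in 1G11-mock and 9.18, 9.13 and 10.04 in 1G11-SOD3. Here 1G11-SOD3 replicate 3 lay above 1G11-mock replicate 1, and the log2 fold change was -0.69 (SE 0.30, adjusted p = 0.314). The probes thus differed by little in the size of the difference.

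Traf3, which holds NIK in the complex and whose loss lets NIK accumulate, read 13.21, 12.84 and 13.36 in 1G11-mock and 12.36, 12.73 and 12.68 in 1G11-SOD3. The lines did not overlap, and the log2 fold change was -0.55 (SE 0.24, 95% interval -1.06 to -0.03, adjusted p = 0.316). The 95% intervals of all 4 TRAF probes excluded 0 without correction for the number of probes, and none passed with it. The sizes changed with the settings. With a position surface removed the values were -0.28 for Traf1, -0.39 and -0.24 for the Traf2 probes in the order A_55_P2092958 and A_55_P2092963, and -0.41 for Traf3. In that order the 95% intervals were -0.85 to 0.30, -1.11 to 0.34, -0.74 to 0.25 and -0.91 to 0.09. All of them included 0, and the lines overlapped at each probe but A_55_P2092963. With the scanner's processed signal, A_55_P2092963 gave -0.02 and Traf3 -0.15, under a scaling in which the median of all probes was -0.52.

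Map3k14, encoding NIK, gave no called difference. Probe A_52_P364130 read 12.17, 12.43 and 11.79 in 1G11-mock and 12.05, 11.76 and 11.73 in 1G11-SOD3, an overlapping pair of ranges with a log2 fold change of -0.28 (SE 0.24, 95% interval -0.82 to 0.25, adjusted p = 0.656). Probe A_55_P1988664, which lies in coding sequence, read 8.08, 7.74 and 7.46 in 1G11-mock and 8.32, 8.14 and 8.03 in 1G11-SOD3. It passed the background limit on no array of 1G11-mock and on all 3 of 1G11-SOD3. The ranges overlapped, with a log2 fold change of 0.40 (SE 0.24, 95% interval -0.12 to 0.93, adjusted p = 0.489). The probes had opposite signs and neither was called. The interval of A_52_P364130 lay within a 2-fold change in either direction.

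The cIAPs could be compared for Birc3 elsewhere on the array. Its probe there read 7.68, 8.59 and 7.57 in 1G11-mock and 7.02, 7.47 and 7.93 in 1G11-SOD3. Each line was above background on 1 of 3 arrays and the ranges overlapped, with a log2 fold change of -0.47 (SE 0.32, 95% interval -1.18 to 0.24, adjusted p = 0.564).

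The 3 probes in the middle of the array are given with their surroundings. Of all 6445 probes there, 12% were called, 768 of them higher and 4 lower. Birc2 read 8.08, 7.01 and 7.13 in 1G11-mock, below background on 3 of 3 arrays, and 9.98, 9.28 and 10.47 in 1G11-SOD3, above it on 3 of 3. This is a level at least 3.47-fold higher in 1G11-SOD3 by the normalized values (means 7.41 and 9.91, adjusted p = 0.00332). The 104 bright spots within 12 rows and 6 columns of it, members left out, had a median difference of 2.84 (quartiles 1.70 and 3.93), larger than the 2.50 of Birc2, and 42.3% of them lay below it. The 35 of these within 1 log2 unit of its brightness had a smaller median, 1.98 (quartiles 1.68 and 2.51), and 74.3% of them lay below it. With the position surface removed, which took off 2.70, the log2 fold change of Birc2 was -0.18 (SE 0.26, 95% interval -0.76 to 0.40, adjusted p = 0.731). Its call was therefore present without the surface and absent with it, and the sign turned.

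Tnfrsf12a, the receptor for TWEAK that is induced in injured and growing tissue, was a bright probe. It read 13.28, 12.88 and 12.07 in 1G11-mock and 14.18, 13.64 and 13.96 in 1G11-SOD3. The lines did not overlap, and the log2 fold change was 1.19 (SE 0.31, 95% interval 0.50 to 1.87, adjusted p = 0.0707), not called. With the replicate number as a block it was called (1.19, adjusted p = 0.032), as it was without 1G11-mock replicate 1 (1.46, adjusted p = 0.0323) and with scaling to the 75th percentile (1.36, adjusted p = 0.0128). Its 97 bright neighbors had a median difference of 0.59, and 82.5% of them lay below it. Among the 15 of similar brightness the median was 0.86 (quartiles 0.71 and 1.29), and 60% lay below it. With the surface removed the arrays of a line drew together, at 13.07, 12.97 and 13.04 in 1G11-mock and 13.63, 13.55 and 13.70 in 1G11-SOD3. The difference that remained was 0.60 (SE 0.20, 95% interval 0.15 to 1.04, adjusted p = 0.125). The TWEAK gene itself, Tnfsf12, had a pair of probes elsewhere. The brighter one did not pass (-0.28, adjusted p = 0.643), and A_55_P1953030 fell by 1.22 (adjusted p = 0.0154).

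The middle probe of Birc3 read 8.08, 7.50 and 6.96 in 1G11-mock and 7.86, 7.74 and 8.10 in 1G11-SOD3. It was above background on 1 of the 6 arrays only, and the log2 fold change of 0.39 (adjusted p = 0.605) was smaller than the median of 0.50 among its 123 bright neighbors and larger than the median of 0.08 among the 22 of similar brightness.

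**Figure D2:**
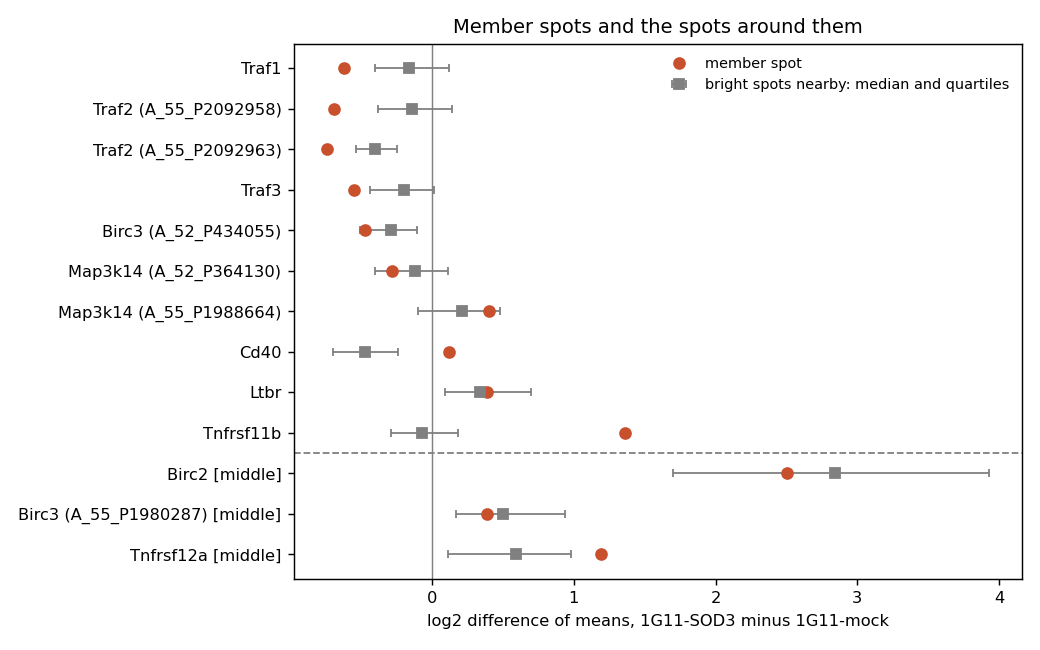
Log2 difference between the means of the lines at each member spot (red) and the median with quartiles of the bright spots within 12 rows and 6 columns (grey), with members left out. Tnfrsf11b lies at 1.36 over a neighbor median of -0.07, whereas Birc2 at 2.50 lies below its neighbor median of 2.84 (1.98 among neighbors of similar brightness, not drawn).

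The same surroundings were examined for the probes elsewhere. The 121 bright spots around Tnfrsf11b had a median difference of -0.07, and 98.3% of them lay below its 1.36. Around the TRAF probes the medians were -0.16 for Traf1, -0.14 and -0.40 for Traf2 (A_55_P2092958 and A_55_P2092963) and -0.20 for Traf3, of the same sign as the probes and smaller in size. In the same order, 17.2%, 9.33%, 17.8% and 16.7% of the neighbors lay below the probe. Ltbr lay at the level of its neighbors, 0.39 against a median of 0.34. The most direct view of the middle came from a related receptor whose probe was printed in both places. Tnfrsf1a, the main TNF receptor, had a log2 fold change of -0.33 elsewhere (adjusted p = 0.531) and of 2.19 in the middle (adjusted p = 0.0821).

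With the position surface removed from every array, the members elsewhere kept 1 called probe, Tnfrsf11b, at 1.52 (SE 0.26, adjusted p = 0.0106), where 1.88% of all probes elsewhere were called. Of the 3 members in the middle, 0 were called by limma, and 1 of them (Tnfrsf12a) had an unadjusted p under 0.05. With the surface removed, 21% of all probes in the middle were called, against 12% without this step. Over the whole array, 650 probes were then called higher and 1635 lower, against 1095 and 597 in the main comparison. Elsewhere 933 were called in either direction with the surface removed. Part of the 1635 lower calls therefore lay in the middle, where the main comparison had 768 higher and 4 lower. Whether the surface takes too much off dim spots was not tested.

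**Figure D3:**
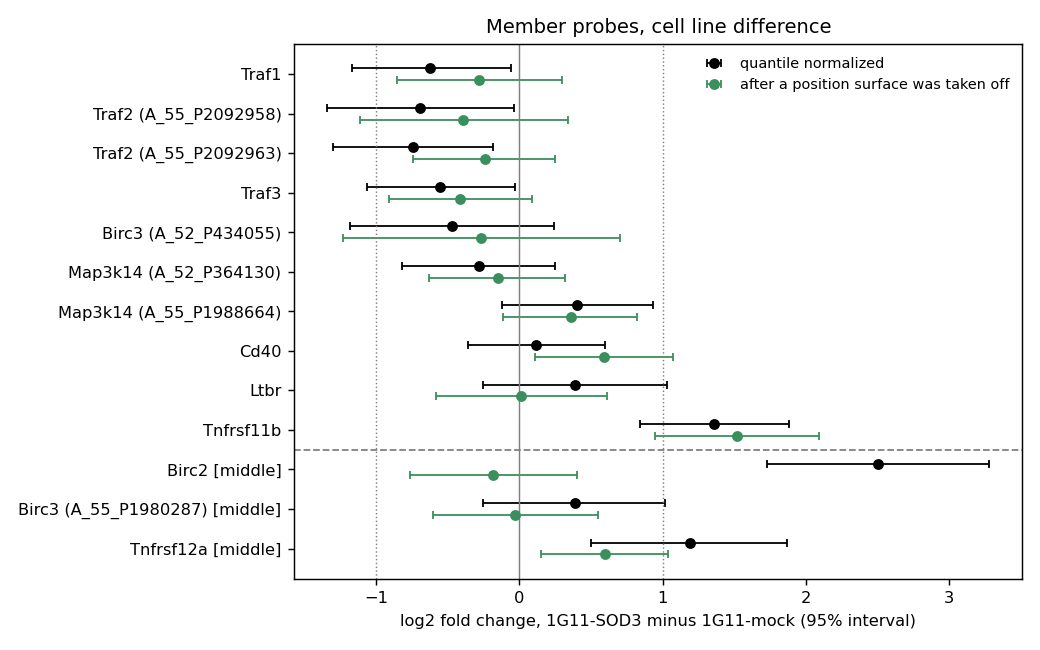
Log2 fold change (1G11-SOD3 minus 1G11-mock) with its 95% interval for each member probe, as quantile normalized (black) and after removal of a position surface (green). Dotted lines mark 2-fold changes. Tnfrsf11b is at 1.36 and 1.52, the TRAF probes move toward 0, and Birc2 moves from 2.50 to -0.18. Cd40 was well above background on no array, so its points are no measured change.

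The rest of the pathway was read from 60 genes listed by role, each by its brightest probe outside the middle. 56 of them had such a probe, and Tnfsf13b, Tnfrsf11a and Tbk1 had one only in the middle. 3 genes were called lower and 2 higher, against 1.93% lower and 1.19% higher among all 20383 genes with a probe elsewhere. 43 of the 56 fold changes were negative, with a median of -0.33. Over all 20383 genes 56.5% were negative, with a median of -0.06, and the median over probes elsewhere above background on all arrays of a line was -0.13.

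Of the ligands, 7 of 8 were well above background on no array, the exception being Tnfsf12, and none was called. Of 10 other TNF receptors, Tnfrsf13c was called higher. This receptor binds the B-cell survival factor BAFF and signals through TRAF3 and NIK. It read 7.68, 8.13 and 8.06 in 1G11-mock, below background on 3 of 3 arrays, and 9.31, 9.06 and 9.20 in 1G11-SOD3, above it on 3 of 3. That is a level at least 2.13-fold higher (means 7.96 and 9.19, adjusted p = 0.0138). Its other probe was below background on all arrays and gave no fold. The call was lost without 1G11-SOD3 replicate 1 (1.16, adjusted p = 0.0682) or replicate 3 (1.17, adjusted p = 0.0621), and without background correction, where the log2 fold change was 0.92. Tnfrsf18 went the other way, above background on all 3 arrays of 1G11-mock and none of 1G11-SOD3, and at least 1.69-fold lower (adjusted p = 0.0514), short of the threshold.

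None of the 13 adaptors and ubiquitin ligases was called. The remaining TRAFs did not share a sign, with log2 fold changes of -0.42 for Traf4, 0.41 for Traf5, -0.30 for Traf6 and 0.22 for Traf7, and adjusted p from 0.412 to 0.698. Xiap, another member of the inhibitor of apoptosis family, was at -0.80 (adjusted p = 0.201). Sharpin, a subunit of the linear ubiquitin ligase that the cIAPs recruit, read 13.74, 13.53 and 13.03 in 1G11-mock and 14.80, 14.53 and 14.16 in 1G11-SOD3. It was at 1.06 (adjusted p = 0.0581), and was called with the replicate number as a block, with dim probes left out and with scaling to the 75th percentile. Its partners Rnf31 (-0.06) and Rbck1 (-0.37) were not called.

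Negative regulators held 2 of the 3 decreases. Tnfaip3, a ubiquitin-editing enzyme induced by NF-κB that limits its signal, read 11.93, 11.12 and 12.16 in 1G11-mock and 9.79, 9.25 and 9.31 in 1G11-SOD3. The lines lay far apart, and it fell by 2.29 (SE 0.30, adjusted p = 0.00222). Nfkbia, encoding IκB alpha, read 15.82, 15.72 and 15.99 in 1G11-mock and 14.18, 14.57 and 14.91 in 1G11-SOD3. It fell by 1.29 (SE 0.25, adjusted p = 0.017). That call was lost without 1G11-mock replicate 2 or 3 (adjusted p = 0.0572 and 0.0553) and without 1G11-SOD3 replicate 1 or 2 (adjusted p = 0.0782 and 0.0566), and with the processed signal, where the log2 fold change was -0.90. The other 5 genes listed as negative regulators were Cyld, Otud7b, Tnip1, Otub1 and Diablo. At their brightest probes they lay between -0.74 and -0.19 and were not called. Second probes read -0.49 for Cyld, -0.86 for Tnip1 and 0.60 for Diablo (adjusted p = 0.541, 0.16 and 0.286 by limma).

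By their brightest probes elsewhere, all 8 kinases and their partners had negative log2 fold changes, from -0.68 to -0.33. The median was -0.55, and none was called. Other probes of Map3k7 were at 0.01 and -0.48. In the middle, Ikbkg was at 1.05 and Tbk1 at 0.60, neither of them called. Chuk, the kinase that NIK activates, was at -0.50 (SE 0.28, adjusted p = 0.47). The 5 NF-κB subunits were negative too, from -1.12 to -0.21, although Rel was well above background on no array. Nfkb2, whose product is processed in the noncanonical branch, read 13.09, 13.98 and 14.38 in 1G11-mock and 13.26, 12.79 and 13.20 in 1G11-SOD3. It was not called (-0.73, SE 0.32, adjusted p = 0.321), and 1G11-mock replicate 1 lay within the 1G11-SOD3 range. Its partner Relb gave -1.12 at its brightest probe (adjusted p = 0.135) and fell by 1.52 at a second probe, A_55_P2168736 (SE 0.28, adjusted p = 0.014). That second probe read 13.08, 13.02 and 14.01 in 1G11-mock and 11.84, 11.84 and 11.86 in 1G11-SOD3.

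The genes known as noncanonical targets split. Cxcl12, a chemokine that retains leukocytes and progenitors, read 15.80, 15.76 and 15.58 in 1G11-mock and 17.21, 17.13 and 17.40 in 1G11-SOD3. It rose by 1.53 (SE 0.22, adjusted p = 0.00324), and its second probe by 2.34 (adjusted p = 0.00335). Vcam1, an adhesion molecule that is a target of the canonical branch too, read 16.83, 16.30 and 17.23 in 1G11-mock and 13.80, 13.38 and 14.11 in 1G11-SOD3. It fell by 3.02 (SE 0.29, adjusted p = 0.000369), and its second probe fell by 3.46 (adjusted p = 0.00137). Cxcl13 and Madcam1 were below background on all arrays, and Ccl19 was above it on 1. Cxcl12 is also made by fibroblasts, and 3 of the 5 fibroblast and mural markers given beside Tnfrsf11b rose in the same comparison. Their part in the Cxcl12 difference was not tested.

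**Figure D4:**
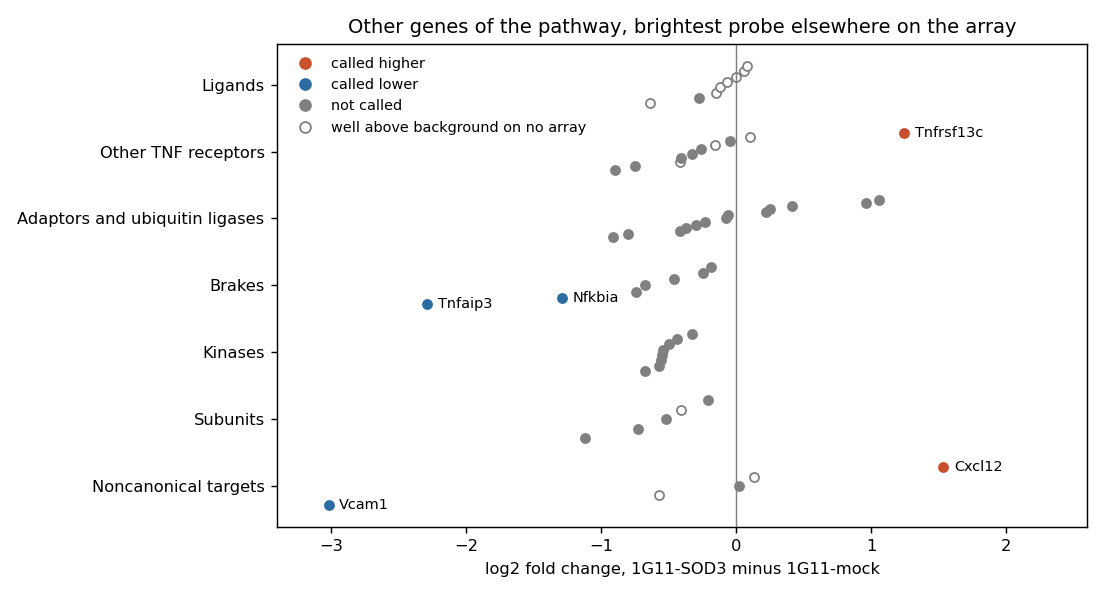
Log2 fold change (1G11-SOD3 minus 1G11-mock) of 56 other pathway genes by role, each by its brightest probe outside the middle of the array. Colored points were called (3 lower, 2 higher), and open points were well above background on no array. Subunits are those of NF-κB, and brakes are genes listed as negative regulators.

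The promoters of the members were searched for NF-κB motifs, since several of these genes are described as targets of the factor and the TRAF probes had the same sign. RefSeq (GRCm38.p6) gave the 250 bases before the gene start for 8 of the members, and Cd40 and Tnfrsf11b had no entry. The κB consensus was searched on both strands, and 7.25% of 32851 promoter windows of this length held it. Of the 8 members only Traf3 held it, and 12 of 49 other pathway genes did, some of which have several windows. The windows of Traf3, the member with a match, and of Nfkbia, a called gene with a match, follow with the consensus in capitals. A match is a description of the letters and not of binding.
Traf3, chr12:111166120-111166369, plus strand: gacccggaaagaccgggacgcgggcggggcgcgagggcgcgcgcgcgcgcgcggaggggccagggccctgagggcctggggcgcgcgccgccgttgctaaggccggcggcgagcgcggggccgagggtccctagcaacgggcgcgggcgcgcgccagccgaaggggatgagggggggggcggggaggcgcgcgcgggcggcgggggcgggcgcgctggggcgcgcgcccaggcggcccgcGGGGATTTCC
Nfkbia, chr12:55492648-55492897, minus strand: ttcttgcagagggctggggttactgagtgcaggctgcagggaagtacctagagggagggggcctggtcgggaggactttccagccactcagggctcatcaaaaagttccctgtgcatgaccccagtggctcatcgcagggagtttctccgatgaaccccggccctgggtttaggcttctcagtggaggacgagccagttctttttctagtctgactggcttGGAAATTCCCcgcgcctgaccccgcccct
The match in Traf3 begins at position -10 and that in Nfkbia at position -29, counted from the gene start. Traf3 was at -0.55 and not called, while Nfkbia fell, as described above.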

How the data were processed

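Total RNA of both lines was hybridized to one-color Agilent arrays. The authors deposited Feature Extraction 10.7.3.1 output with spot intensities and local backgrounds, not normalized. They also deposited log2 values after normexp correction and quantile normalization with limma. That table was recomputed to within 0.005 from median pixel intensities with control spots kept. Here, mean spot intensities were normexp corrected (offset 50), taken to log2 and quantile normalized without control spots, and outlier spots were left out. Spots of 1 probe were averaged separately for the middle and elsewhere. The lines were compared with limma 3.58.1 in R 4.3.3, with 3 arrays each limiting the precision. The smallest p of an exact permutation test is 0.1. On simulated data 190 of 200 changed probes were found, with 9 false calls among 55971. The position surface was a smooth of row and column fitted to each array with mgcv 1.9.3, the 10-copy probes being held out. It lowered the SD of the line difference among copies of 192 such probes from 0.464 to 0.165.

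The members, the pathway and marker lists and the settings were chosen with earlier results of these data known. All members and every called pathway gene are named, as are the 3 genes most like the called member. Of the marker lists, 1 gene is not reported here. A level written as at least a fold is a bound, as the probe was above background on no array of a line. It was taken on the means, without their sampling error. Replicate numbers of the titles were taken to pair the arrays only in the setting with the replicate number as a block. The main comparison and its p-values do not use this pairing. With the block, 1498 probes were called higher and 798 lower, against 1095 and 597 in the main comparison. Deviations of same-numbered arrays from their line means correlated at 0.14, 0.14 and 0.24 over 15177 probes. Each number also shared a column of the slide. Figures were drawn with matplotlib 3.10.9.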

Additional observations from a re-analysis of the deposited data

How the results depend on the processing

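The member probes called elsewhere numbered 1 higher and 0 lower in the main comparison, and the pathway genes 2 higher and 3 lower. The count of members called lower was 0 in all alternatives run. Leaving out each array in turn gave 0 to 1 members and 1 to 2 pathway genes called higher. Without background correction, and with all probes of a gene averaged, 1 pathway gene was called higher, and averaging gave 4 called lower. The pathway genes called lower numbered 9 with the processed signal and 5 with scaling to the 75th percentile, settings in which the median over all probes was -0.52 and -0.33, and the cause of the other changes was not tested. Birc2 reversed to -0.18 with the position surface removed. Tnfrsf11b lay between 1.01 and 1.52 over 21 alternatives and was called in 19 of them. The replicate block left 1 member called higher elsewhere and called Tnfrsf12a (1.19) and Sharpin in addition, with no other change among the members and pathway genes called. The TRAF probes were negative under all 21 alternatives and called under none. Signal over background limits Cd40, Birc3 and most ligands, for which a difference could not be seen at this intensity.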
